A study of Mus musculus with 4 samples.

Results

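The genes described here are 36 CREB regulators, CREB targets and immediate early genes, chosen by symbol, of which 35 were measured among 22180 genes. A gene was measured where the platform annotation gave a probeset (a group of array probes for 1 transcript) its symbol and no other, and the brightest probeset over the 4 arrays stood for it. Fosl1 shared its probeset with another gene and has no value here. Islets, the endocrine clusters of the pancreas that hold its insulin cells, came from GPR41 transgenic (Tg) mice and from WT littermates, with 2 arrays in each group. All mice were C57BL/6 aged 5 to 6 months, and all islets were kept in RPMI medium before RNA was taken. GPR41, encoded in mice by Ffar3, senses short-chain fatty acids at the cell surface. The promoter and the cell type that drive the transgene are not given in the sources used here, nor is whether an array holds islets of 1 mouse or of several, so the p-values measure the spread between these 4 samples. Values are log2 expression as deposited, differences are Tg minus WT on that scale, and p-values are from limma with Benjamini-Hochberg adjustment over all 22180 genes. A member was said to have changed at an adjusted p under 0.05.

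CREB is a transcription factor that cAMP and calcium switch on through phosphorylation, and that works with coactivators of the CRTC family. It binds the cAMP response element, or CRE, near the start of its target genes. Many of these targets are immediate early genes, which cells transcribe within minutes of a stimulus and without making new protein, and which also answer to growth factors, stress and tissue handling. In beta cells CREB is known for maintaining Irs2, a signalling protein of the insulin receptor, downstream of glucose and incretin hormones. GPR41 couples to inhibitory G proteins, which lower cAMP.

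The promoters of 25 of the 36 genes were in the RefSeq table of build GRCm38.p6, each as the 250 bases before and the 50 bases after the gene's start. The full CRE, TGACGTCA, was in 2 of the 25 (8%, Wilson 95% interval 2.22% to 25%), against 2.45% of the promoters of 16918 tested genes. Its core, TGACG on either strand, which every full CRE contains, was in 13 of the 25 (52%, interval 33.5% to 70%), against 24.5%. The site of EGR factors, GCGNGGGCG on either strand, was in 8 (32%), against 7.68%, the CArG box of serum response factor was in 1 (4%), against 1.46%, and the AP-1 site TGANTCA on either strand was in 0 (interval 0% to 13.3%), against 7.37%. Only these exact spellings were searched, so variants of a site, such as tgacatca in the Jun promoter below, were not counted. The promoters of these genes were richer in G and C, with a median of 65.3% against 56.3%, and what part that has in the shares was not tested. The sequences below run 5′ to 3′ along the gene, with each CRE core in capitals. They show the 2 promoters with a full CRE, 3 others with several cores, and those of the pair of genes with the largest differences between the groups, which hold no core in this window.
Dusp1 (chr17:26508423-26508722, minus strand): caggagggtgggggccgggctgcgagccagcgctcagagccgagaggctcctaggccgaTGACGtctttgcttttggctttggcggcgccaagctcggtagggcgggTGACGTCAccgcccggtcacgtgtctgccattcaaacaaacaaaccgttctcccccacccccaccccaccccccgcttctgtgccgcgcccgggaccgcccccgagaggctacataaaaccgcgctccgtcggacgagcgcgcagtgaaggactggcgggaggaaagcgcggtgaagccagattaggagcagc
Btg2 (chr1:134079106-134079405, minus strand): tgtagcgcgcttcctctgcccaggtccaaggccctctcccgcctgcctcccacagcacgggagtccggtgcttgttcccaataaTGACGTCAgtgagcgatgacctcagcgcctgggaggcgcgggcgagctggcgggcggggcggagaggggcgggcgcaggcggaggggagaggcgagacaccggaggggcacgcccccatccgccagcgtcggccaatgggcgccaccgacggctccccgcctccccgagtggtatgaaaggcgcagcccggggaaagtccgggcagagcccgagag
Nr4a1 (chr15:101266596-101266895, plus strand): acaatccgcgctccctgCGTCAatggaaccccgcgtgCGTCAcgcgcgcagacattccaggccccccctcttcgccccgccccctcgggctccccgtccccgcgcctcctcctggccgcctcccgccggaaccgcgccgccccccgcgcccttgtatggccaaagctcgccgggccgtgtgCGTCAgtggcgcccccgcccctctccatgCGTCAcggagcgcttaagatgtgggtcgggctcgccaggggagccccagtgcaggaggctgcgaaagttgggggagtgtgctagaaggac
Nr4a2 (chr2:57123954-57124253, minus strand): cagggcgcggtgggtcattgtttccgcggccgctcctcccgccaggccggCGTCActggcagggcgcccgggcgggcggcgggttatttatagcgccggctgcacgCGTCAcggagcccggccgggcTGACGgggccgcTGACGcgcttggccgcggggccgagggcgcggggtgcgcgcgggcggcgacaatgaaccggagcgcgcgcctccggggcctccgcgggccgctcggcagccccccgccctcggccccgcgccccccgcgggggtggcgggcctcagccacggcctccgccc
Fos (chr12:85473640-85473939, plus strand): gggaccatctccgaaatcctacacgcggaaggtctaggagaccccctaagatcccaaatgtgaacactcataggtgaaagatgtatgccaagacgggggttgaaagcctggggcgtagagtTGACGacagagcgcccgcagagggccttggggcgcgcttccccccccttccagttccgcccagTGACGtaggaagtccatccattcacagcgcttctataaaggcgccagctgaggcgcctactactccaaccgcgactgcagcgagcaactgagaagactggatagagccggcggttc
Jun (chr4:95052173-95052472, minus strand): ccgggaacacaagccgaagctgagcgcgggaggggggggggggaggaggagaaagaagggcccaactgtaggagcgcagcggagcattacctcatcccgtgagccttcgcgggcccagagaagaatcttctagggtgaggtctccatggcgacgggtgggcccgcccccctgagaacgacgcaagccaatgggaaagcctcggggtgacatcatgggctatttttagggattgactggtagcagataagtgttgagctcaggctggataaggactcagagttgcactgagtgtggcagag
Dusp6 (chr10:99262981-99263280, plus strand): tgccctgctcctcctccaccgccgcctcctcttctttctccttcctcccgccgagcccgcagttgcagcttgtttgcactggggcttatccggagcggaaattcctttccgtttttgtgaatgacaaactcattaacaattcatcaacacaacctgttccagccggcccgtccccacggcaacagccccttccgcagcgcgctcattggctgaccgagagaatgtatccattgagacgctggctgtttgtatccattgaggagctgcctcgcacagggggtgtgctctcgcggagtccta

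The full CRE began 143 bases before the start of Dusp1 and 166 bases before that of Btg2. The median difference between Tg and WT islets was 0.17 over the 13 genes with a core and 0.18 over the 12 without one. Their ranges were -0.34 to 0.36 with a core and -0.26 to 1.02 without one. Between the WT arrays the median gap, replicate 2 minus replicate 1, was 0.49 with a core and 0.23 without one. WT replicate 2 was the higher for 12 of the 13 genes with a core and 8 of the 12 without one. The part of the core in these gaps was not tested.

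Ffar3, the transgene's own gene, rose 18.7-fold, with 11.02 and 10.98 on the Tg arrays and 7.09 and 6.47 on the WT arrays (difference 4.22, SE 0.21, adjusted p = 0.0020). Median values of the 4 arrays were 6.43 to 6.47, and across all 27037 probesets Pearson's r was 0.994 within Tg, 0.991 within WT and 0.986 to 0.987 across groups.

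The WT arrays disagreed on the immediate early genes. WT replicate 1 was the lowest of the 4 arrays for 23 of the 35 genes (65.7%), while it was the lowest for 22.6% of all genes. WT replicate 2 exceeded WT replicate 1 for 28 of the 35 (80%), against 44.4% of all genes, with a median gap of 0.32 against -0.027. In 8 of the 35 that gap was at least 1.5-fold, against 2.58% of all genes. Between the Tg arrays no gap of the 35 reached 1.5-fold, against 2.07% of all genes. The median gap there, replicate 2 minus replicate 1, was -0.11 against 0.006. Tg replicate 2 exceeded Tg replicate 1 for 10 of the 35 (28.6%), against 51.4% of all genes. For 25 of the 35 genes the gap between the WT arrays was larger than the difference between the groups, against 55.1% of all genes. The median difference of the 35 genes, 0.16 with all arrays, was -0.063 without WT replicate 1 and 0.36 without WT replicate 2.

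**Figure D1:**
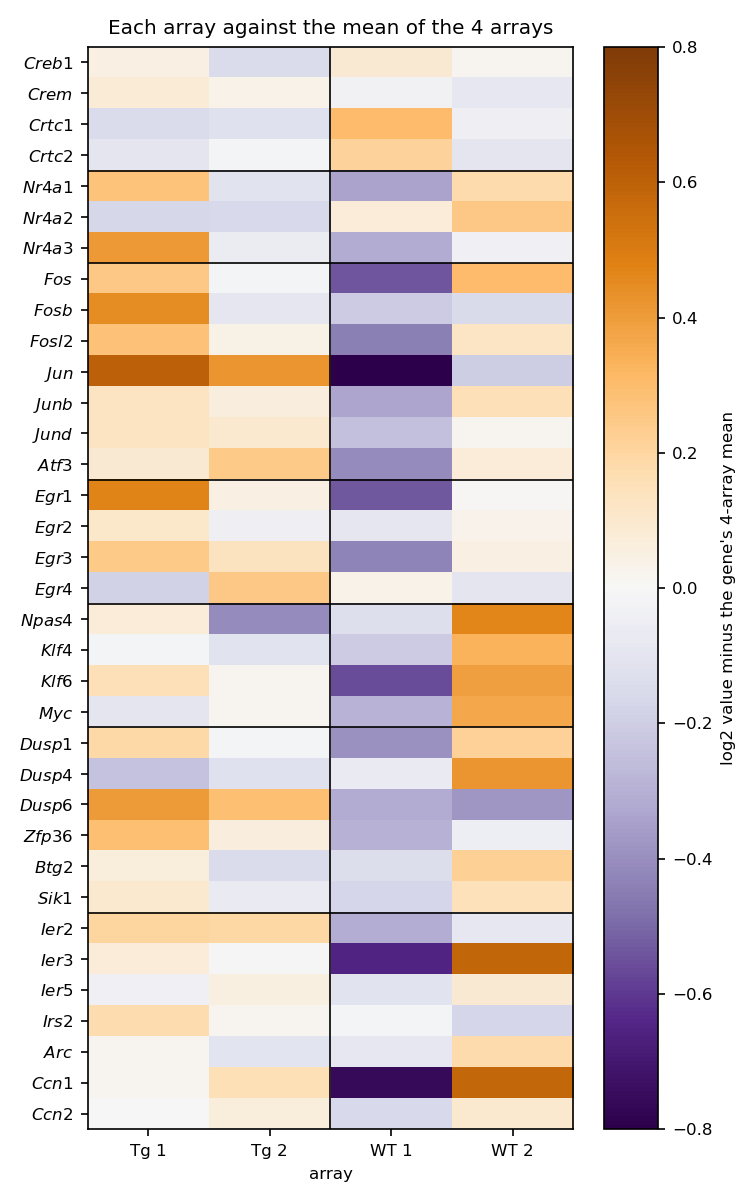
Log2 value of each of the 35 genes on each array minus that gene's mean over the 4 arrays, with genes grouped by role and Tg arrays left of WT arrays. The WT replicate 1 column is the lowest for 23 of the 35 genes.

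**Figure D2:**
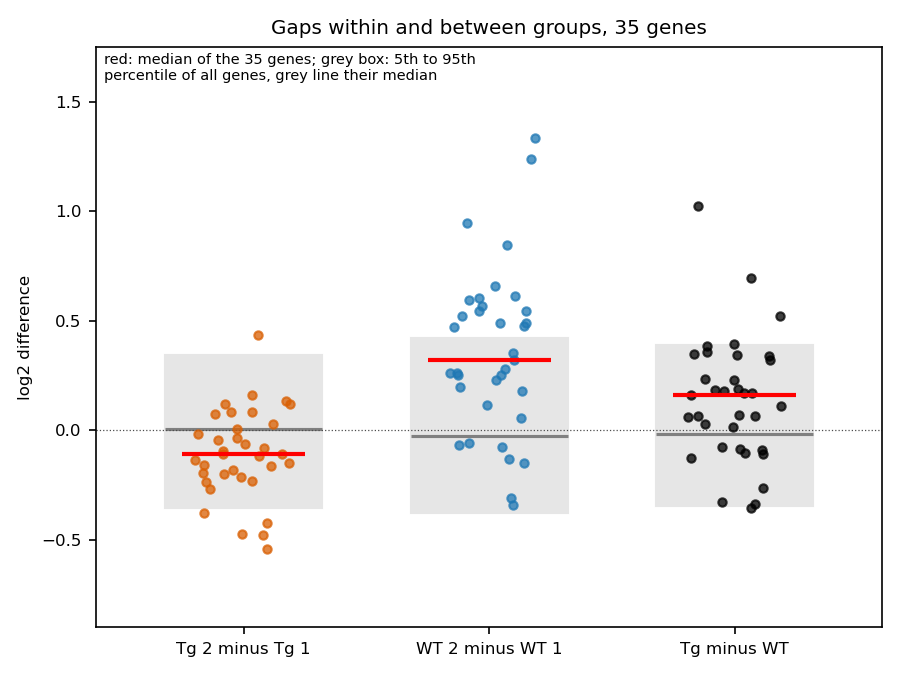
Log2 gaps of the 35 genes (points) between the Tg arrays, between the WT arrays, and between the group means, with the median of the 35 in red and the 5th to 95th percentile of all genes as a grey box. The median gap is -0.11 between the Tg arrays, 0.32 between the WT arrays and 0.16 between the groups.

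Markers of exocrine and duct cells stood apart on the same pair of arrays. The mean of 9 acinar markers, enzymes and a regulator of the digestive enzyme cells, was 11.31 and 10.88 on the Tg arrays and 10.59 and 11.54 on the WT arrays, and all 9 were higher on WT replicate 2 than on WT replicate 1. The mean of 8 duct markers was 8.77 and 8.62 on the Tg arrays and 8.18 and 9.19 on the WT arrays, and 6 of the 8 were higher on WT replicate 2 than on WT replicate 1. The exceptions were Krt7 (-0.32) and Prom1 (-0.052), while the duct keratin gene Krt19 was at 8.38 and 7.82 on the Tg arrays and at 6.91 and 9.31 on the WT arrays. Sox9, a duct transcription factor, was at 7.36 and 7.12 on the Tg arrays and at 6.83 and 8.71 on the WT arrays. All 10 beta cell markers were higher on WT replicate 1 than on WT replicate 2. Their means were 10.62 and 10.74 on the Tg arrays and 10.92 and 10.66 on the WT arrays. WT replicate 2 was the higher for 0 of 8 alpha, delta and PP cell markers, 3 of 15 leukocyte and 2 of 12 endothelial markers. It was the higher for 9 of 12 mesenchymal markers, 44.4% of all genes and 34.7% of genes at or above the median level. The part of these cells in the levels of the immediate early genes was not tested, and in whole islets fewer cells of a type cannot be told apart from less RNA per cell.

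**Figure D3:**
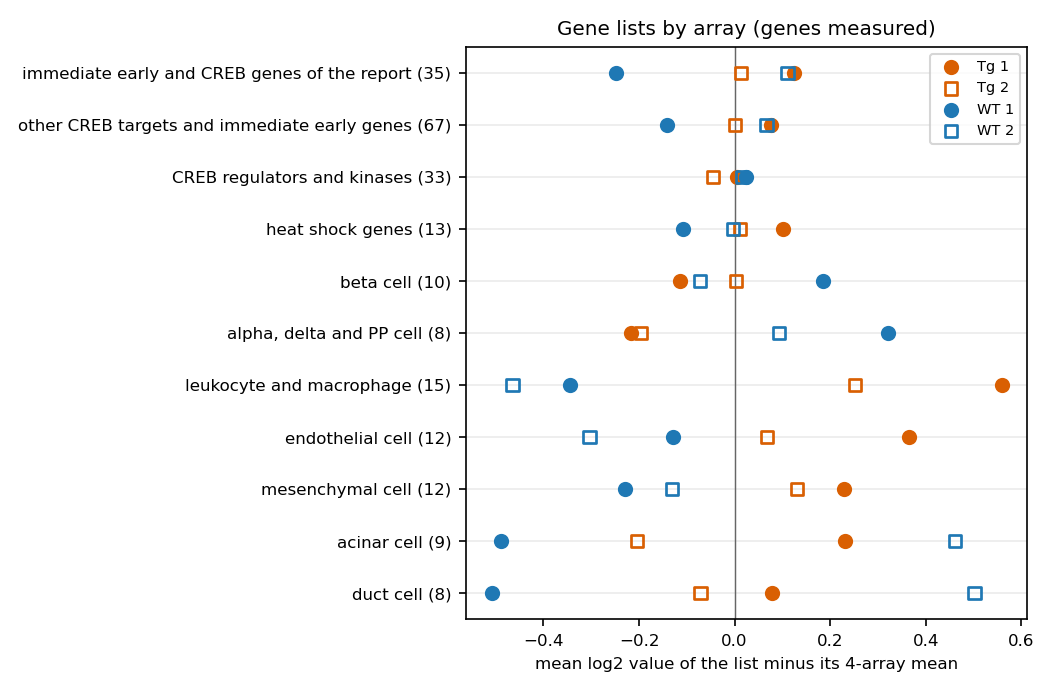
Mean log2 value of each gene list on each array minus the list's mean over the 4 arrays, with Tg arrays in orange and WT arrays in blue. The means of the 35 genes described here and of the acinar and duct markers are lowest on WT replicate 1. So are those of the other CREB targets and immediate early genes, the heat shock genes and the mesenchymal markers. Of the 13 heat shock genes, 7 are higher on WT replicate 2 than on WT replicate 1. Leukocyte markers are higher on both Tg arrays.

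Between the groups, none of the 35 genes passed the adjusted test in limma, against 0.897% of all genes, 0.672% with higher and 0.225% with lower values in Tg. At an unadjusted p under 0.05 there were 4 (11.4%), close to the 11.8% of all genes. They were Jun, Dusp6 and Ier2, with higher values in Tg (3 genes, 8.57%, against 6.13%), and Nr4a2, with lower values (1 gene, 2.86%, against 5.72%). Jun and Dusp6 were also at least 1.5-fold apart, 2 of 35 (5.71%) against 3.48% of all genes, or 2.35% with higher values in Tg. The groups did not overlap for 14 genes (40%), against 42.3% of all genes. Both Tg arrays lay above both WT arrays for 11 genes (31.4%), against 18.6% of all genes, and below them for 3 (8.57%), against 23.7%. The difference was above 0 for 25 of 35 genes (71.4%), against 45.7% of all genes, and for 16 of 35 without WT replicate 1 and 29 of 35 without WT replicate 2. The median difference was 0.16 over the 35 genes and -0.017 over all genes. Over all genes it was -0.0093 without WT replicate 1 and -0.021 without WT replicate 2.

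**Figure D4:**
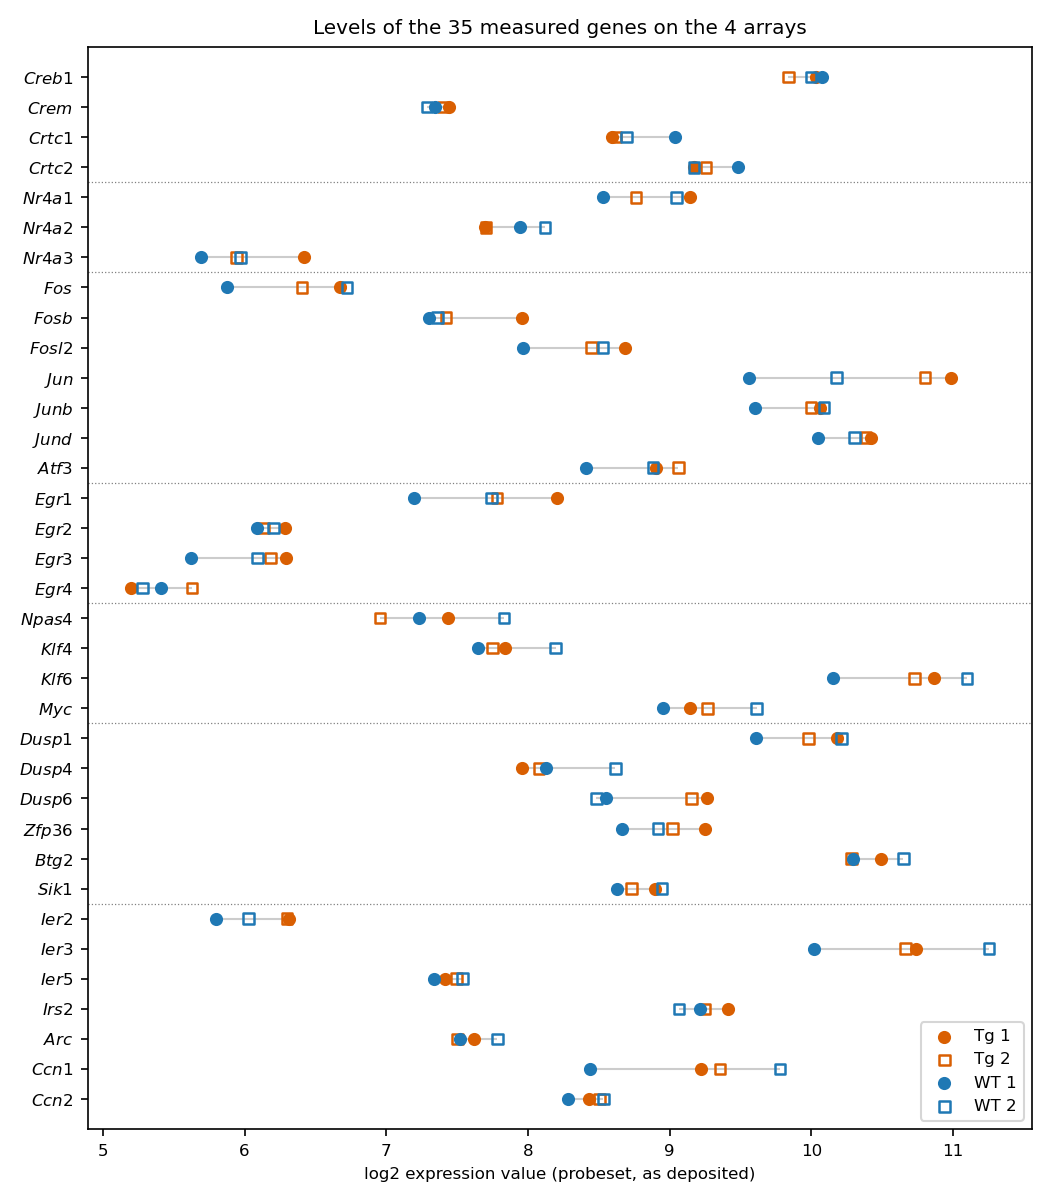
Deposited log2 value of the 35 genes on each array, grouped by role from CREB at the top to effectors at the bottom, with Tg arrays in orange, WT arrays in blue, replicate 1 filled and replicate 2 open. Jun and Dusp6 have both Tg arrays clear of both WT arrays, while Ccn1, Ier3, Klf6 and Fos have their lowest and highest values on the WT arrays.

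Of CREB and its partners, Creb1, Crtc1 and Crtc2 had differences below 0 and Crem had one above 0. Creb1, which encodes CREB, was at 10.03 and 9.84 on the Tg arrays and at 10.07 and 10.00 on the WT arrays (difference -0.10, 95% confidence interval -0.39 to 0.19, and -0.0053 without Tg replicate 2). Its coactivator gene Crtc1 was at 8.59 and 8.62 on the Tg arrays and at 9.04 and 8.70 on the WT arrays, so that the groups did not overlap (-0.26, interval -0.61 to 0.09). Its difference was -0.091 without WT replicate 1 and -0.43 without WT replicate 2. Crtc2, the CRTC best known in islets and liver, overlapped between the groups (-0.11, interval -0.45 to 0.23). Crem, whose locus also makes the CREB repressor ICER, was at 7.45 and 7.40 on the Tg arrays and at 7.34 and 7.29 on the WT arrays (0.11, interval -0.14 to 0.36). ICER and the longer forms of Crem were not told apart here. None of these 4 genes had its lowest value on WT replicate 1, against 22.6% of all genes. WT replicate 2 was above WT replicate 1 for 0 of the 4, against 44.4% of all genes. Among genes at or above the median level, where all 4 lay, these shares were 16% and 34.7%.

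The Nr4a genes encode orphan nuclear receptors whose activity follows their own transcription. Nr4a2 had lower values in Tg islets, 7.70 and 7.70 on the Tg arrays and 7.94 and 8.12 on the WT arrays (difference -0.33, SE 0.11, unadjusted p = 0.029, adjusted p = 0.352 in limma). Its promoter, printed above, holds 4 CRE cores, as do those of Nr4a1 and Nr4a3. Nr4a1 was at 9.14 and 8.76 on the Tg arrays and at 8.53 and 9.05 on the WT arrays (0.16, interval -0.37 to 0.69). Nr4a3 was at 6.42 and 5.94 on the Tg arrays and at 5.69 and 5.97 on the WT arrays (0.35, interval -0.12 to 0.82), and the difference was 0.21 without WT replicate 1 and 0.11 without Tg replicate 1. The groups overlapped for Nr4a1 and Nr4a3 but not for Nr4a2.

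AP-1 is a dimer of Fos, Jun and Atf family proteins. All 7 measured AP-1 genes had a difference above 0 (median 0.32) and all 7 had their lowest value on WT replicate 1. Jun, the founding Jun gene, which AP-1 itself activates, was at 10.98 and 10.80 on the Tg arrays and at 9.56 and 10.18 on the WT arrays. That is a 2.03-fold difference (1.02, SE 0.21, interval 0.50 to 1.55, unadjusted p = 0.0034, adjusted p = 0.135 in limma). The Tg arrays lay 0.72 above the WT group without WT replicate 1 and 1.33 above it without WT replicate 2, so the gap remained over 1.5-fold either way without passing the adjusted test (adjusted p = 0.161 and 0.0545). Fos, the classical partner of Jun, was at 6.67 and 6.40 on the Tg arrays and at 5.88 and 6.72 on the WT arrays. The Fos groups overlapped (0.24, interval -0.46 to 0.93), and the difference was -0.19 without WT replicate 1.

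Among the other AP-1 genes, Jund, the constitutive Jun gene, was at 10.42 and 10.38 on the Tg arrays and at 10.04 and 10.30 on the WT arrays (0.23, and 0.098 without WT replicate 1), and its dimmer second probeset gave 0.017. Junb, an immediate early Jun gene with a CRE core in its promoter, overlapped between the groups (0.19). Fosb was at 7.96 and 7.42 on the Tg arrays and at 7.30 and 7.36 on the WT arrays (0.36), so its size rested on Tg replicate 1, without which it was 0.088. Fosl2, of the Fos-related antigens, overlapped between the groups (0.32, and 0.036 without WT replicate 1). Atf3, a stress-induced repressor, was at 8.90 and 9.06 on the Tg arrays and at 8.41 and 8.88 on the WT arrays (0.34, and 0.099 without WT replicate 1). Jun therefore had the largest of the 7 AP-1 differences, and the interval of each of the other 6 included 0.

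The Egr genes encode zinc finger factors driven by serum response factor and by CREB. Egr1 was at 8.20 and 7.78 on the Tg arrays and at 7.20 and 7.74 on the WT arrays (difference 0.52, interval -0.04 to 1.08), and it was 0.25 without WT replicate 1 and 0.31 without Tg replicate 1. Egr3 was at 6.29 and 6.18 on the Tg arrays and at 5.62 and 6.09 on the WT arrays (0.38, interval -0.05 to 0.81), and its difference was 0.15 without WT replicate 1 and 0.62 without WT replicate 2. For both genes Tg replicate 2 lay just above WT replicate 2. Egr2 (0.07) and Egr4 (0.07) overlapped between the groups. Egr2, Egr3 and Egr4 lay below the median level of all genes, as did Fos, Nr4a3 and Ier2, where arrays compress differences.

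The other transcription factors were highest on WT replicate 2. Npas4, a factor that excitable cells make after calcium entry, was at 7.44 and 6.96 on the Tg arrays and at 7.23 and 7.83 on the WT arrays (-0.34, interval -0.95 to 0.27). Its difference was -0.63 without WT replicate 1 and -0.038 without WT replicate 2. Klf6 was at 10.86 and 10.73 on the Tg arrays and at 10.15 and 11.10 on the WT arrays, so both Tg arrays lay between the WT arrays (0.17, interval -0.57 to 0.91). Klf4, a Krüppel-like factor as Klf6 is (-0.13), and the growth regulator Myc (-0.08) had the same arrangement. For these 3 genes the sign of the difference depended on which WT array was kept.

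The feedback genes end the response they belong to. Dusp6, a phosphatase that dephosphorylates the kinase ERK and that ERK signalling induces, was at 9.26 and 9.15 on the Tg arrays and at 8.55 and 8.48 on the WT arrays. Here the WT arrays were 0.067 apart, and the groups did not overlap, a 1.62-fold difference (0.69, SE 0.11, interval 0.43 to 0.96, unadjusted p = 0.00075, adjusted p = 0.0639 in limma). Of the 35 genes it had the smallest p, and its difference stayed between 0.64 and 0.75 with each array left out. A second, dim Dusp6 probeset, at 4.28 and 4.33 on the Tg arrays and 4.38 and 4.48 on the WT arrays, gave -0.13, and the mean of both gave 0.28. Over the 13 alternatives its adjusted p lay between 0.024 and 0.487, under 0.05 with a filter on dim genes (0.038), with a variance trend (0.037) and with a trend and robust prior (0.024).

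The related phosphatase genes had other patterns. Dusp4, which encodes a nuclear phosphatase of ERK and its relatives, was at 7.96 and 8.08 on the Tg arrays and at 8.13 and 8.62 on the WT arrays, with Tg below WT (-0.36, interval -0.80 to 0.09). Its difference was -0.60 without WT replicate 1 and -0.11 without WT replicate 2. Dusp1, a stress-induced phosphatase with a full CRE in its promoter, was at 10.18 and 9.98 on the Tg arrays and at 9.61 and 10.21 on the WT arrays (0.17, and -0.13 without WT replicate 1). The difference between Dusp6 and these genes was not tested. Zfp36, which encodes a protein that marks AU-rich messenger RNAs for decay, was at 9.25 and 9.02 on the Tg arrays and at 8.66 and 8.92 on the WT arrays (0.34, interval -0.01 to 0.70, and 0.22 without WT replicate 1). Btg2, an antiproliferative gene and the other with a full CRE (-0.09), and Sik1, a CREB-induced kinase that keeps CRTC proteins out of the nucleus (0.03), overlapped between the groups.

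Of the remaining genes, Ier2, a nuclear early response gene, was at 6.32 and 6.30 on the Tg arrays and at 5.80 and 6.03 on the WT arrays (0.39, SE 0.12, unadjusted p = 0.018, adjusted p = 0.290 in limma). Ier3, an early response gene tied to cell survival, was at 10.74 and 10.66 on the Tg arrays and at 10.02 and 11.25 on the WT arrays (0.07, interval -0.87 to 1.00). Ccn1, a secreted matrix-associated protein, was at 9.22 and 9.36 on the Tg arrays and at 8.44 and 9.78 on the WT arrays (0.18, interval -0.83 to 1.19). In Ier3 and Ccn1 the WT arrays differed 2.36-fold and 2.53-fold, with both Tg arrays between them. Irs2, the CREB target best known in beta cells, was at 9.41 and 9.25 on the Tg arrays and at 9.22 and 9.07 on the WT arrays (0.19, interval -0.11 to 0.48, and 0.11 without Tg replicate 1 or without WT replicate 2). Ier5 (0.02), Ccn2, a relative of Ccn1 (0.06), and Arc, a gene of neuronal plasticity (-0.09), overlapped between the groups, and a dimmer Ccn2 probeset gave -0.08.

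**Figure D5:**
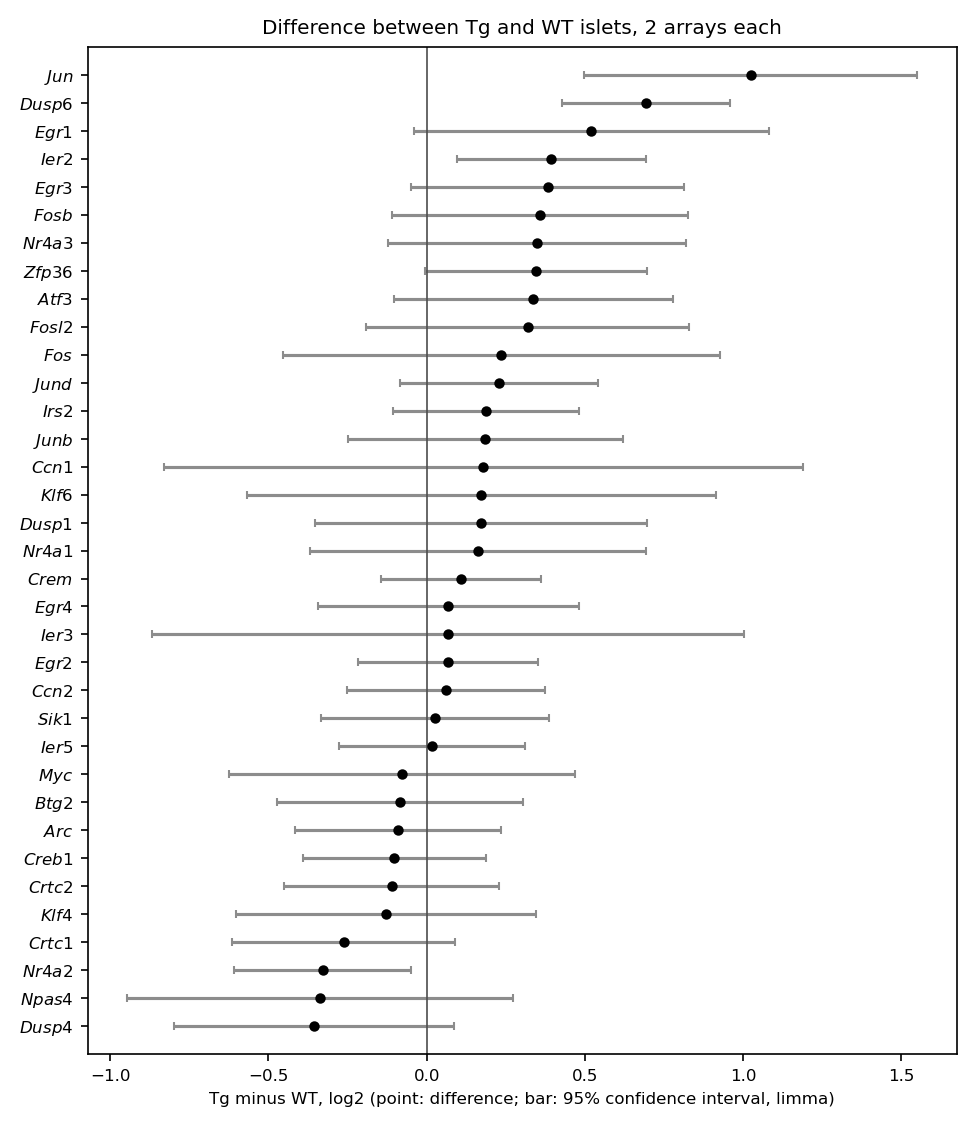
Difference between Tg and WT islets for each of the 35 genes, as points with 95% confidence intervals from limma on the log2 scale. The intervals of Jun, Dusp6 and Ier2 lie above 0 and that of Nr4a2 lies below 0, before adjustment for the number of genes, and Ier3 and Ccn1 have among the widest.

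A list of other CREB targets and immediate early genes was read beside these. Of 67 measured genes 1 rose and 1 fell at the adjusted threshold, where 0.672% of all genes rose and 0.225% fell. At an unadjusted p under 0.05, 9 of the 67 had higher and 8 of the 67 lower values. Both are larger shares than the 6.13% and 5.72% of all genes, but the list was chosen with earlier results of these data known. The median difference of the list was 0.10. Gem, a small GTPase that restrains calcium channels, rose 1.81-fold, at 9.02 and 8.83 on the Tg arrays and 8.03 and 8.10 on the WT arrays (0.86, SE 0.12, adjusted p = 0.047 in limma). Its call was lost in 6 of 13 alternatives, among them each array left out in turn (adjusted p = 0.122 to 0.262). Ppargc1a, a coactivator of mitochondrial genes that CREB induces in the fasted liver, fell by 1.41 (SE 0.17, adjusted p = 0.035 in limma). It was at 5.49 and 5.53 on the Tg arrays and at 7.15 and 6.69 on the WT arrays. Its mean level lay under the median of all genes, where arrays compress differences, and the filter on dim genes left it out. Its call was lost in 4 of 12 alternatives, without Tg replicate 1 (adjusted p = 0.206), without Tg replicate 2 (0.148), with the replicate block (0.145) and without moderation (0.542). Dusp14, another phosphatase gene (0.62, adjusted p = 0.118), and Sgk1, a kinase gene induced by glucocorticoids and serum (0.47, adjusted p = 0.181), had the next smallest p-values. In this list too most genes, 50 of 67, were higher on WT replicate 2 than on WT replicate 1.

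Genes of the CREB regulators and their kinases had lower values more often, 23 of 33, against 12034 of all 22180 genes. Their median was -0.07, with no change past the test. The median was -0.017 over all genes and -0.040 over genes at or above the median level. This list was bright, with means of 8.72 to 8.79 on the arrays, against a median level of 6.53 over all genes. At an unadjusted p under 0.05 there were 2 higher and 1 lower of the 33, against 6.13% and 5.72% of all genes. Rps6ka5, which encodes the CREB and histone kinase MSK1, was at 8.01 and 7.81 on the Tg arrays and at 6.90 and 7.12 on the WT arrays (0.90, SE 0.13, adjusted p = 0.058 in limma). It passed in 3 of 13 alternatives, with the level filter (adjusted p = 0.0386), the variance trend (0.0470) and the trend with robust prior (0.0338), and over all 13 its adjusted p lay between 0.034 and 0.542. Camk4, a calcium-dependent CREB kinase, was at 6.24 and 6.12 on the Tg arrays and at 5.72 and 5.80 on the WT arrays. Its difference was 0.42 (adjusted p = 0.215 in limma), and the mean of its probesets gave 0.22 (adjusted p = 0.578). Its 4 values lay under the median level of all genes. The third CRTC gene, Crtc3 (-0.34, adjusted p = 0.307), and Mrtfa, a coactivator of serum response factor (-0.25, adjusted p = 0.463), had lower values. Heat shock genes, which tissue handling can induce, had a median of 0.05 over 13 genes with no change past the test. Of the 13, 3 had higher values at an unadjusted p under 0.05, against 6.13% of all genes. They were Hsph1 (0.62), Hspa1a (0.82) and Hsp90aa1 (0.29). This list was also chosen with earlier results of these data known. Dnajb1 (-0.40) had lower values at that threshold, 1 of 13, against 5.72% of all genes. Hspa1a was at 11.87 and 11.05 on the Tg arrays and at 10.68 and 10.60 on the WT arrays, and its difference was 0.41 without Tg replicate 1.

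Islets hold leukocytes and vessels, which also make immediate early genes, and their markers had higher values on the Tg arrays. All 15 measured leukocyte and macrophage markers had higher values in Tg (median 0.75), with means of 7.98 and 7.67 on the Tg arrays and 7.08 and 6.96 on the WT arrays, and 1 of them, Coro1a, rose (0.94, adjusted p = 0.031 in limma). All 12 endothelial markers did so as well (median 0.40, 0 past the test), with means of 8.59 and 8.29 on the Tg arrays and 8.10 and 7.92 on the WT arrays. Of 12 mesenchymal markers 11 had higher values (median 0.17), with means of 6.97 and 6.87 on the Tg arrays and 6.51 and 6.61 on the WT arrays. Markers of alpha, delta and PP cells had lower values for 7 of 8 (median -0.33), with means of 10.38 and 10.40 on the Tg arrays and 10.91 and 10.69 on the WT arrays. The part of these cells in the values of Jun, Dusp6 and the other genes was not tested. Of 9 acinar markers 6 had higher values (median 0.04), and of 8 duct markers 6 had lower values (median -0.07). Among the duct genes 1, Cftr, rose (2.30) and 1, Prom1, fell (-1.0), where 0.672% of all genes rose and 0.225% fell.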

How the data were processed

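Islet RNA (250 ng per array) was labelled per the labels and read on Mouse Gene 2.0 ST arrays of Affymetrix. The deposited table holds log2 values of 27037 probesets, from 2.87 to 13.9, made by the authors with Partek and RMA per the submitters' processing notes, without versions. RMA corrects background, equalises array distributions and summarises probes. No genome build is stated for the table. Sample titles gave the groups.

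Probesets of 1 symbol (23521) gave 22180 genes, the brightest standing for each, with no filter on dim genes. Those of several symbols (1814) or none (1702) were left out. Differences were fitted with limma 3.58.1 (R 4.3.3; lmFit, eBayes), on 2 residual and 3.76 prior degrees of freedom. No two-sided exact permutation p of this design falls under 0.333. The number of arrays limits the precision. On simulated data of 22180 genes with 200 changed, the fit found 65.2% of the 2-fold changes and 97.5% of the 4-fold ones, and 4.48% of its calls were false. The simulated errors were independent between genes and drawn from limma's own fitted prior. Shifts shared by many genes on an array, as between the WT arrays here, are therefore not covered by these rates.

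The members and gene lists were chosen with earlier results of these data known. All members are named, and of each other pathway list the genes past the test and the 4 with the smallest p. A GRCm38.p6 gene table matched older symbols. Motifs were searched in RefSeq promoters, 1 per gene. Alternatives covered probesets, a level filter, normalisation, the variance prior, a replicate block and each array left out.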

Additional observations from a re-analysis of the deposited data

How the results depend on the processing

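The 13 alternatives for the array values were all planned. Of all genes 199 passed the adjusted threshold, and the variance trend with a robust prior gave 347, no moderation 0 (1928 at an unadjusted p under 0.05), the replicate block 24, and each array left out 38 to 135. The 35 genes had 0 past that threshold, and 1, Dusp6, with the filter at the median level (of 29 genes left), with the variance trend and with the trend and robust prior. It stayed at 0 in the other 10 alternatives, the replicate block and each array left out included. At an unadjusted p under 0.05 there were 4 genes, 1 without moderation, 4 with the replicate block, and 2 to 16 with each array left out, the highest without WT replicate 2, against 8.01% to 12.8% of all genes. The 2 genes at least 1.5-fold apart became 1 with the mean of probesets, 1 without moderation and 2 to 9 when an array was left out, a fit that gives a lone array the spread of the other group. Leaving out an array took the median of the 35 genes to between -0.063 and 0.36.

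The sign turned for 17 of the 35 genes in 22 of 449 values, 21 of them with an array left out, and none of these genes passed the test. With each array left out, the ranges were -0.49 to 0.85 for Ccn1, -0.55 to 0.68 for Ier3, -0.30 to 0.65 for Klf6, -0.19 to 0.66 for Fos, -0.41 to 0.25 for Myc, -0.40 to 0.14 for Klf4, -0.13 to 0.47 for Dusp1, -0.098 to 0.42 for Nr4a1, -0.058 to 0.43 for Junb, -0.13 to 0.19 for Sik1, -0.26 to 0.091 for Btg2, -0.22 to 0.042 for Arc, -0.26 to 0.044 for Crtc2, -0.15 to 0.28 for Egr4, -0.0091 to 0.14 for Egr2, -0.083 to 0.12 for Ier5 and -0.064 to 0.19 for Ccn2. Ccn2 was -0.0089 with the mean of probesets. The cause was not tested. Arrays with the same replicate number correlated at -0.063 in their deviations from the group means, and the labels do not say that a number marks a shared litter or day. With only the 250 bases before the start, the same numbers of promoters held each motif (52% the CRE core).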
